A study of Mus musculus with 12 samples.

Results

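Described here are 39 genes of the integrated stress response and the unfolded protein response in mouse embryonic fibroblasts (MEFs) treated with doxorubicin. MEFs are primary connective tissue cells grown from embryos. The genes were found by symbol among the 16425 genes of the table, and all 39 were listed. They divide into an ATF4 arm of 22 genes and an endoplasmic reticulum (ER) arm of 17 genes. The MEFs were wild type and had been infected with one of 2 guide RNAs. The response element guide (sg10) is directed at the Pvt1 p53 response element, where p53 binds within this long noncoding RNA gene. The control guide (sgtom) is non-targeting. Both groups compared here were kept for 24 h in 0.5 µM doxorubicin, a DNA-damaging drug, and each had 3 replicates. The series holds 12 samples in 4 groups, and the untreated groups were not analysed here, so no value below is a response to doxorubicin. The labels call the replicates biological but do not say whether they came from separate embryos, so p-values measure the spread between these cultures.

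In the integrated stress response, kinases that sense different stresses phosphorylate the translation factor eIF2 alpha, which slows most protein synthesis but favours translation of the transcription factor ATF4. ATF4 and its partners then raise genes of amino acid uptake and synthesis. In the unfolded protein response, sensors in the ER membrane switch on chaperones, disulfide isomerases and the machinery that removes misfolded proteins. The kinase encoded by EIF2AK3 (PERK) belongs to both, and fibroblasts, which secrete much collagen, keep ER folding enzymes at high levels. RNA levels do not read ATF4 translation or kinase activity.

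After doxorubicin, the 39 genes differed little between the guides. Levels are the authors' CPM, reads relative to a scaled library size, and differences are log2 fold changes of log2(CPM + 0.5), response element guide over control guide, which understate changes of low genes. The differences of the members ran from −0.17 for STC2 to 0.06 for SYVN1. No member passed an adjusted p of 0.05 in limma (0 of 39, with 0 at an unadjusted p under 0.05), and edgeR and DESeq2 likewise called 0. Of all 14440 genes tested, 0 or 0% passed in the same limma fit, and only 50 were at an unadjusted p under 0.05. With replicate number as a block, 0.0346% of all genes and again 0 of 39 members passed, with 1 member (STC2) at an unadjusted p under 0.05, as had 6.68% of all genes. Standard errors (SE) were 0.0497 to 0.618 without the block and 0.0316 to 0.128 with it (median 0.0418). Small differences between the guides were therefore not detectable for most members, and a missing call does not show equal levels. Each SE given below for a single gene is without the block unless the block is named, and so includes the spread between replicate numbers. In bulk RNA, fewer cells of a type and less RNA per cell cannot be told apart.

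The 6 libraries held 50091418 to 66132317 reads in genes. PVT1 itself, the gene of the targeted element, had 16.4, 11.7 and 12.1 CPM with the control guide and 8.04, 5.93 and 5.40 CPM with the response element guide, with no overlap. It fell with the block (log2 fold change −0.999, limma adjusted p = 1.40e-04) and did not pass without it. MYC, the neighbouring gene, had 28.7, 27.0 and 35.6 CPM against 43.5, 48.6 and 53.8 CPM and rose with the block (0.67, limma adjusted p = 5.49e-04). Limma without trend called neither with the block (adjusted p = 0.249 and 0.835). All 10 fibroblast markers were in the table, with a summed level of 37018 to 38811 CPM per library. Most of that sum came from FN1, COL1A1, VIM and COL1A2, while LUM was low, at 4.21 to 22.7 CPM. Libraries with equal replicate numbers resembled each other more than libraries with the same guide did. Both libraries of replicate 1 lay above the other 4 for 3716 of 14440 genes and below them for 3650.

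The most abundant members were ER folding genes. Compared per kilobase of exon, as the mean of 6 libraries, CALR was highest at 485 CPM per kb. This lectin chaperone was followed by the disulfide isomerase PDIA3 (419.6 CPM per kb) and the membrane-bound lectin chaperone CANX (209 CPM per kb). PDIA4 (103 CPM per kb) and PDIA6 (74.4 CPM per kb) came next, and the library ranges of these neighbours did not overlap. The most abundant members of the ATF4 arm were SLC3A2 at 53.8 and ATF4 at 53.5 CPM per kb, whose ranges overlapped. From CRELD2 (40.6 CPM per kb) down to ATF6B (32.0 CPM per kb), each member overlapped the next, as did those from SYVN1 (20.1 CPM per kb) down to MANF (10.4 CPM per kb). At the low end stood SLC7A11 (1.13), SLC7A3 (0.424) and CEBPG (0.119 CPM per kb), the last resting on 32 to 51 reads per library. The median level was 26.3 CPM per kb in the ER arm, 10.8 in the ATF4 arm and 4.27 over 13992 tested genes with a known length.

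**Figure D1:**
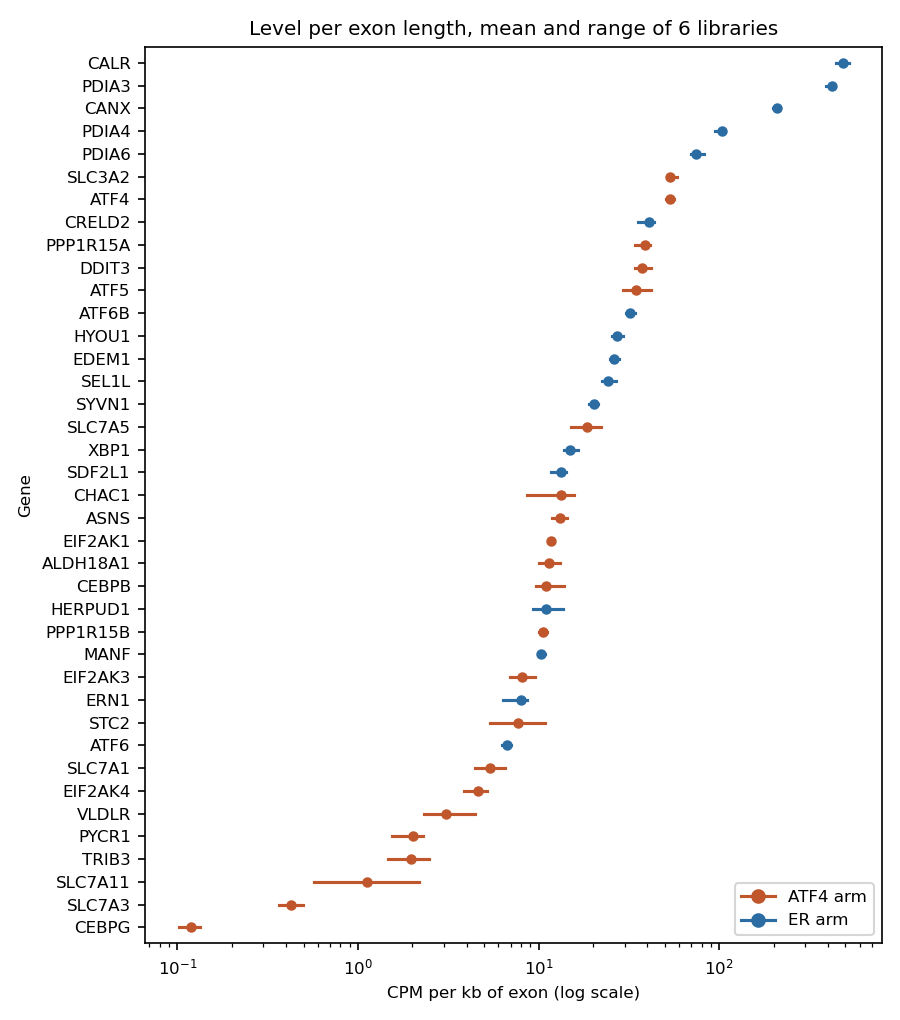
Level of each member in CPM per kb of exon on a log scale. Points are means of the 6 doxorubicin-treated libraries and lines their range, in orange for the ATF4 arm and blue for the ER arm. CALR (485 CPM per kb) leads and CEBPG (0.119 CPM per kb) is lowest, and the 5 highest members are ER folding genes.

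Elements known to mediate these responses were searched in the promoters, and the matches are shown because they tie members to ATF4, ATF6 or XBP1 by sequence, apart from any expression value. RefSeq promoters (GRCm38.p6, 250 bases before to 50 after the start) matched 33 of 39 members. The missing members were PPP1R15B, SLC7A3, SLC7A5, ATF6, HYOU1 and MANF. Both strands were searched. The ER stress element, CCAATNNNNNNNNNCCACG, bound by ATF6 and XBP1 together with NF-Y, was present in 5 of 14 ER arm members, 0 of 19 ATF4 arm members and 0.137% of all 27025 genes. Its short form (ATTGG, 1 further base, CCACG) was present in HERPUD1 and in 0.0444% of all genes. Capitals below mark the elements, and each sequence is read 5′ to 3′ on the strand of the gene. In CALR and CRELD2 the element stands in reverse complement.
CALR, chr8:84847065-84847103, minus strand: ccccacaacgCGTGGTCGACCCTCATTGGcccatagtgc
CANX, chr11:50325790-50325828, minus strand: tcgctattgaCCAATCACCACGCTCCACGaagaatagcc
CRELD2, chr15:88819510-88819548, plus strand: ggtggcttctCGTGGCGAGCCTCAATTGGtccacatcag
PDIA6, chr12:17266481-17266519, plus strand: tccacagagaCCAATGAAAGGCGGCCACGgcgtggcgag
SYVN1, chr19:6046522-6046560, plus strand: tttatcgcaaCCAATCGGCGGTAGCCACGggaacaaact
HERPUD1, chr8:94386367-94386397, plus strand: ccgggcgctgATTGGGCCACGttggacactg

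The core of the element that ATF4 binds with a C/EBP partner, TGATGNAA, was present in 6 of 19 ATF4 arm members, 1 of 14 ER arm members and 4.51% of all genes. The ATF4 arm members were ASNS, CHAC1, PYCR1, SLC7A11, TRIB3 and VLDLR, and the ER arm member was HERPUD1, which thus held both kinds of element. The match in TRIB3 lies after the start, unlike the others, and its sequence is not shown. In SLC7A11 the core occurred in both orientations, with first bases at −66 and −47 from the start. The core TGACGTGG, another sequence bound by XBP1 and ATF6, was in 0 members of either arm and 0.714% of all genes. A match describes letters in a window and does not show that a factor was bound. Capitals again mark the element, which is read in reverse complement where TTGCATCA is shown.
ASNS, chr6:7693215-7693242, minus strand: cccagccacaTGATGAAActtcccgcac
CHAC1, chr2:119351039-119351066, plus strand: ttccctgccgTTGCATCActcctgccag
PYCR1, chr11:120643834-120643861, minus strand: gccctgtgtaTGATGCAAtgcacaaggc
SLC7A11, chr3:50443662-50443689, minus strand: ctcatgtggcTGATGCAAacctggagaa
SLC7A11, chr3:50443643-50443670, minus strand: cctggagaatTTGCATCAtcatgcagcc
VLDLR, chr19:27216810-27216837, plus strand: gcagcaatagTTGCATCAgcgctcctag
HERPUD1, chr8:94386307-94386334, plus strand: ccacggcgggTTGCATCAgcccgcaccc

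The ER arm leaned slightly lower with the response element guide, and the ATF4 arm was closer to an even split. In the ER arm 14 members were lower and 3 higher, with a median log2 fold change of −0.04. In the ATF4 arm 13 were lower and 9 higher, with a median of −0.02. Over all genes 50.3% were lower, with a median of −0.000399, and the median absolute difference was 0.0448 for the members and 0.0470 for all genes. Within pairs of equal replicate number, the ER arm median was −0.0193, −0.0417 and −0.0258 and the ATF4 arm median −0.0120, −0.0319 and −0.0103. The ATF4 arm thus lay above the ER arm in each pair, by 0.00729, 0.00974 and 0.0155, and by 0.0202 over the fit. This difference turned to −0.00976 without control replicate 3, which breaks a pair, and to −0.00151 in the blocked fit without replicate 2.

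Lower values in all 3 pairs were seen for 10 members, against 14.4% of all genes. Of these, 6 belong to the ER arm (SEL1L, PDIA3, PDIA6, CANX, SDF2L1 and MANF) and 4 to the ATF4 arm (EIF2AK3, DDIT3, CEBPG and VLDLR). Higher values in all 3 pairs were seen for ASNS, SYVN1 and HYOU1, 3 members against 14.4% of all genes. One gene, CANX, was lower without overlap of the guides, as were 1.47% of all genes. A higher level without overlap was found for 0 members and 2.15% of all genes.

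**Figure D2:**
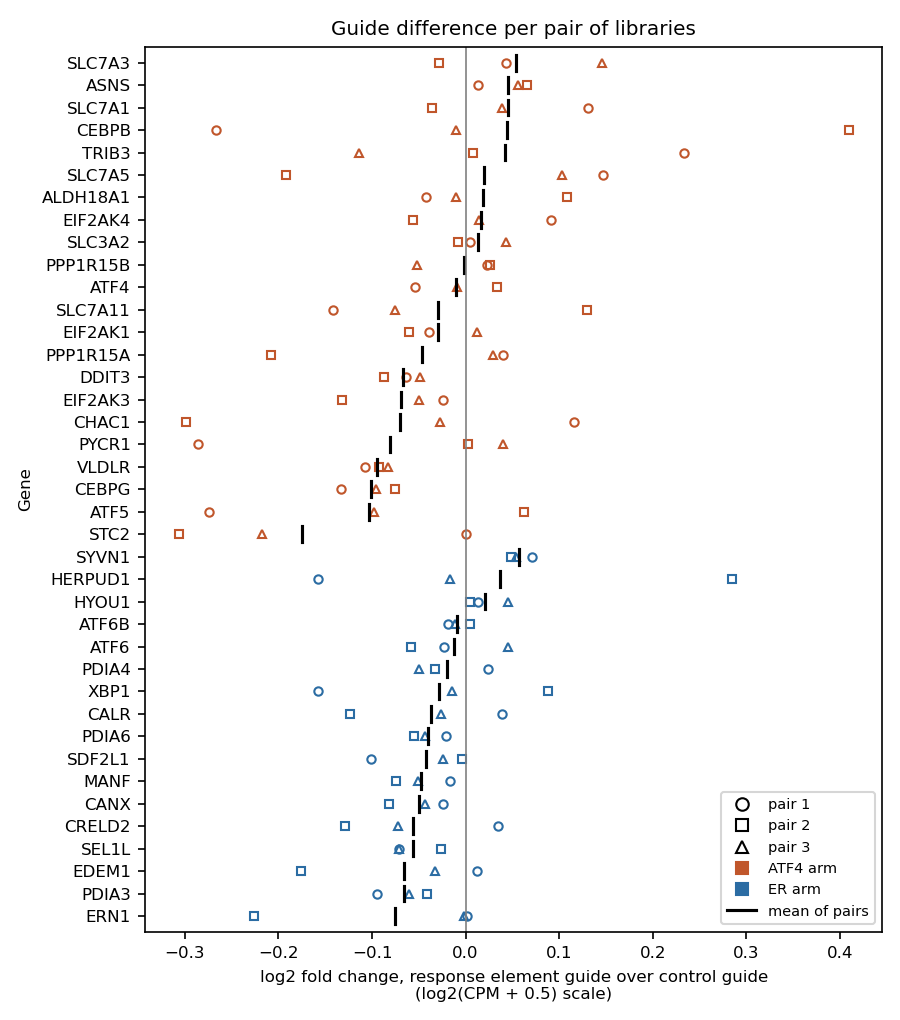
Difference between guides for each member, as log2(CPM + 0.5) with the response element guide minus the control guide. Circles, squares and triangles are pairs 1, 2 and 3, bars are pair means, orange is the ATF4 arm and blue the ER arm. Of the 17 ER arm means 14 lie below 0, against 13 of 22 in the ATF4 arm, and the spread of the pairs is widest for CEBPB and HERPUD1 of the 39.

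Among the eIF2 alpha kinases, 2 lay lower and 1 higher. The heme-regulated kinase gene EIF2AK1 had 68.5, 68.1 and 65.0 CPM with the control guide and 66.6, 65.2 and 65.5 CPM with the response element guide. The ranges overlapped and the log2 fold change was −0.03 (SE 0.0497). EIF2AK3, which encodes the ER-resident kinase PERK, averaged 50.0 ± 6.96 and 47.7 ± 7.66 CPM (SD, n = 3 each). EIF2AK4, which encodes GCN2, the sensor of uncharged tRNA, averaged 34.4 ± 4.90 and 34.7 ± 3.86 CPM (SD, n = 3 each). Up to 11.6% of the exon length of EIF2AK1 lies opposite exons of other genes, and the strand setting of the counting is not given in the sources used here.

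Phosphatase subunits that reverse the eIF2 alpha mark differed by less than their spread. PPP1R15A, the stress-induced subunit GADD34, had 118, 116 and 111 CPM against 122, 100.4 and 113 CPM. Its lowest and highest values were both in the response element guide group, so the ranges overlapped (log2 fold change −0.05, SE 0.0815). PPP1R15B, the constitutive subunit, averaged 59.2 ± 3.11 and 59.1 ± 1.75 CPM (SD, n = 3 each).

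ATF4 and the transcription factors downstream of it were also close. ATF4 (ENSMUSG00000042406.8, chr15:80255184-80257541, plus strand, mm10) had 129, 129.9 and 121 CPM with the control guide and 124, 133 and 120.2 CPM with the response element guide. Its group means were 126 ± 4.81 and 126 ± 6.63 CPM (SD, n = 3 each), a log2 fold change of −0.01 (SE 0.0632). DDIT3, which encodes the pro-apoptotic factor CHOP (ENSMUSG00000025408.15, chr10:127290774-127296288, plus strand), had 71.4, 64.1 and 60.3 CPM against 68.3, 60.2 and 58.3 CPM. Each response element guide library lay below its partner, yet the ranges overlapped (log2 fold change −0.07, SE 0.0901; limma adjusted p = 0.753 with the replicate block).

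ATF5, a related factor of the mitochondrial stress response, averaged 71.9 ± 11.0 and 66.7 ± 7.26 CPM (SD, n = 3 each). Its pairs differed by −0.27, 0.06 and −0.10. With replicate 2, the pair of opposite sign, left out of the blocked fit, ATF5 was the 1 member called on the 2 remaining pairs (−0.19, limma adjusted p = 0.0200). In that fit 1.11% of all genes were called. CEBPB, a C/EBP partner, averaged 16.2 ± 1.97 and 16.8 ± 3.49 CPM (SD, n = 3 each), and 20.7% of its exon length lies opposite exons of TMEM189. CEBPG, another partner, averaged 0.710 and 0.627 CPM. The pseudokinase gene TRIB3, a feedback inhibitor, averaged 4.16 ± 1.09 and 4.24 ± 0.560 CPM (SD, n = 3 each).

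Of the 5 amino acid transporter genes 4 lay higher and 1 lower. The differences were well inside the spread between replicate numbers, which the block removes. With the block, only SLC7A1 differed by more than its SE (0.0448 against 0.0405). SLC3A2, the heavy chain shared by several transporters, had 183, 184 and 199 CPM against 183, 183 and 205 CPM (log2 fold change 0.01, SE 0.0720). The cationic amino acid transporter gene SLC7A1 had 56.2, 52.7 and 73.3 CPM against 61.6, 51.4 and 75.3 CPM (0.04, SE 0.176, or 0.0405 with the replicate block). For both genes the replicate 3 libraries were the highest of either guide. The leucine transporter gene SLC7A5 averaged 68.1 ± 10.7 and 69.1 ± 11.5 CPM and its relative SLC7A3 averaged 1.56 ± 0.126 and 1.65 ± 0.248 CPM (SD, n = 3 each).

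SLC7A11, the light chain of the cystine-glutamate exchanger that feeds glutathione synthesis (ENSMUSG00000027737.10, chr3:49892526-50443614, minus strand), varied most. It had 30.4, 9.52 and 8.40 CPM with the control guide and 27.5, 10.5 and 7.95 CPM with the response element guide. Both replicate 1 libraries were about level with each other and far above the other 4, while the guides overlapped (log2 fold change −0.03, SE 0.618, or 0.0687 with the replicate block).

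Genes of amino acid synthesis and glutathione breakdown split evenly, 2 lower and 2 higher. ASNS, asparagine synthetase, had 32.6, 37.5 and 35.6 CPM against 32.9, 39.3 and 37.0 CPM. It was higher in each pair by a small amount, and the ranges overlapped (log2 fold change 0.05, SE 0.0892; limma adjusted p = 0.874 with the replicate block). The proline synthesis genes PYCR1 and ALDH18A1 averaged 8.15 and 7.76 CPM and 46.1 and 46.8 CPM. CHAC1, an enzyme that degrades glutathione, had 23.6, 17.6 and 25.2 CPM against 25.6, 14.2 and 24.7 CPM (−0.07, SE 0.251), with both replicate 2 libraries below the other 4.

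The secreted glycoprotein gene STC2 (ENSMUSG00000020303.2, chr11:31357307-31370074, minus strand) had the largest difference between guides by limma on log2(CPM + 0.5), whereas by edgeR and DESeq2 on reads CEBPG exceeded it. STC2 had 56.5, 34.6 and 34.3 CPM with the control guide and 56.5, 27.9 and 29.4 CPM with the response element guide. The replicate 1 libraries were equal, those of replicates 2 and 3 were lower with the response element guide, and the ranges overlapped. The log2 fold change was −0.17 (SE 0.321), with an SE of 0.0566 and a limma adjusted p of 0.672 with the replicate block. It turned to 0.06 without control replicate 1, which breaks a pair. VLDLR, the very low density lipoprotein receptor (ENSMUSG00000024924.14, chr19:27216484-27254231, plus strand), had 44.7, 25.0 and 26.5 CPM against 41.4, 23.4 and 25.0 CPM. It was lower in each pair by a similar amount and overlapped between guides (−0.09, SE 0.295). With the block the SE of VLDLR was 0.0445 and its limma adjusted p was 0.738.

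**Figure D3:**
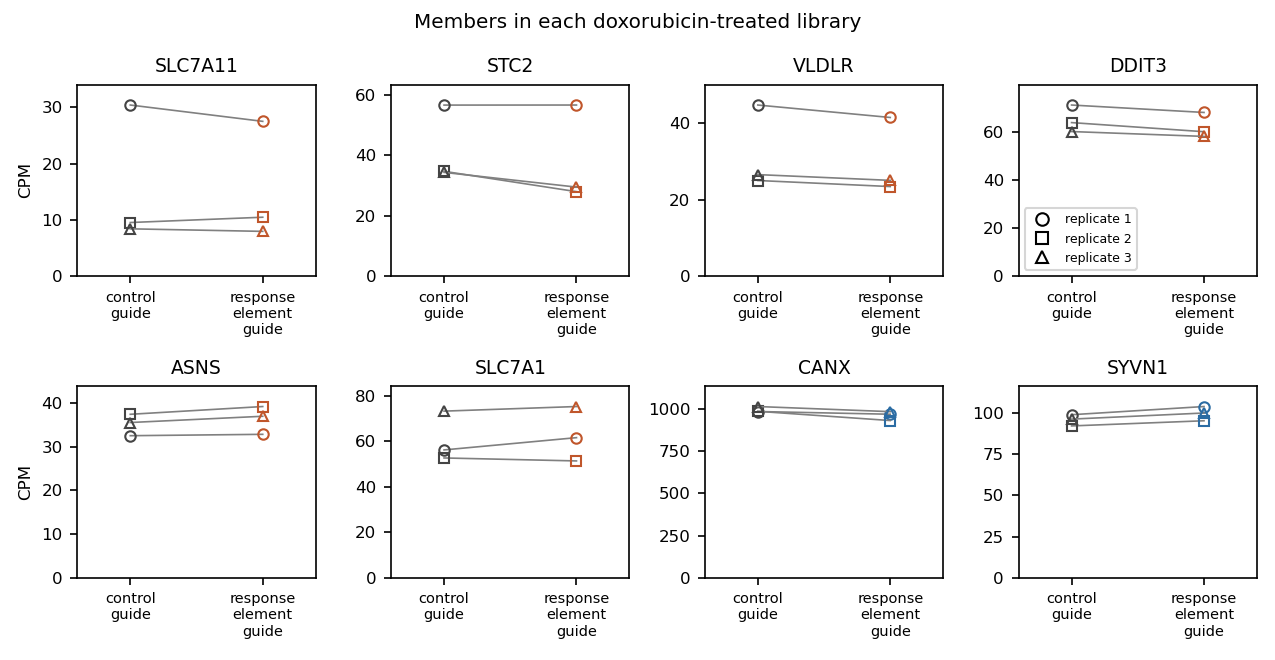
CPM of 8 members in the 6 libraries, with control guide libraries on the left and response element guide libraries on the right of each panel. Circles, squares and triangles are replicates 1, 2 and 3, and lines join equal replicate numbers. Lines are nearly flat, while SLC7A11, STC2 and VLDLR stand higher in both replicate 1 libraries (SLC7A11 at 30.4 and 27.5 CPM).

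The ER stress sensors and their factors, 4 genes, all lay slightly lower on average, but each had pairs of both signs. ERN1, which encodes the sensor and ribonuclease IRE1 alpha, had 70.7, 60.5 and 68.7 CPM against 70.8, 51.7 and 68.6 CPM. Only the replicate 2 pair differed visibly (log2 fold change −0.08, SE 0.134). XBP1, whose RNA is spliced by that enzyme (ENSMUSG00000020484.18, chr11:5520659-5525893, plus strand), had 50.5, 50.5 and 46.0 CPM against 45.2, 53.7 and 45.5 CPM (−0.03, SE 0.0866). Values are per gene, so the spliced and unspliced forms of XBP1 were not separated.

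The membrane-bound factor gene ATF6 had 63.1, 60.3 and 62.9 CPM against 62.1, 57.9 and 64.9 CPM (log2 fold change −0.01, SE 0.0612). Its relative ATF6B had 85.7, 85.1 and 94.5 CPM against 84.6, 85.4 and 93.8 CPM (−0.01, SE 0.0702). For both genes the ranges of the guides overlapped, and the replicate 3 libraries of ATF6B were above the other 4.

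In ER-associated degradation, which returns misfolded proteins to the cytosol for destruction, 2 genes lay lower and 2 higher. SEL1L, the scaffold of the ubiquitin ligase complex, had 229.8, 201 and 202 CPM against 219, 197 and 192 CPM (log2 fold change −0.06, SE 0.0838, or 0.0320 with the replicate block). SYVN1, the ligase HRD1 of the same complex (ENSMUSG00000024807.18, chr19:6046576-6053712, plus strand), had 99.1, 92.3 and 96.4 CPM against 104, 95.4 and 100.1 CPM (0.06, SE 0.0588, or 0.0329 with the replicate block). The scaffold was thus lower and the ligase higher in each pair, neither passed the test, and the ranges overlapped for both. EDEM1, which marks misfolded glycoproteins for removal, had 163, 181 and 177 CPM against 164, 159.8 and 173 CPM (−0.07, SE 0.0660). HERPUD1, a membrane component of the complex, averaged 25.3 ± 5.69 and 25.7 ± 3.40 CPM (SD, n = 3 each), with pairs of both signs.

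Folding enzymes and chaperones were lower in 8 of 9 cases, and 5 of these were lower in each pair. PDIA3, the disulfide isomerase that works with CALR and CANX, had 1314, 1377 and 1349.8 CPM against 1231, 1337 and 1295 CPM (log2 fold change −0.07, SE 0.0713). With the replicate block the SE of PDIA3 was 0.0325 and its limma adjusted p was 0.742. CANX (ENSMUSG00000020368.15, chr11:50293961-50325673, minus strand) had 986.4, 987.7 and 1016 CPM against 970.4, 933 and 985.7 CPM. The guides did not overlap, but the lowest control and highest response element guide library were nearly level. Its means were 997 ± 16.8 and 963 ± 27.2 CPM (SD, n = 3 each; −0.05, SE 0.0652). A two-sided exact permutation test gave p = 0.10, the smallest that 3 against 3 allows. Lack of overlap fixes that p in advance, so it adds no support.

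CALR had 1272, 1479 and 1498 CPM against 1306, 1358 and 1471 CPM (log2 fold change −0.04, SE 0.0966), with the replicate 1 libraries lowest under both guides. PDIA6 had 266, 275 and 307 CPM against 262, 264 and 298 CPM (−0.04, SE 0.0849), with the replicate 3 libraries highest. The nucleotide exchange factor gene HYOU1, the 1 chaperone that lay higher, had 193, 185 and 205 CPM against 194, 185 and 212 CPM (0.02, SE 0.0749). These 3 genes overlapped between guides and shared more with their replicate partner than with their guide. The remaining members had small differences as well, between −0.06 and −0.02. They were PDIA4 (means of 249 and 246 CPM), SDF2L1, a partner of ER chaperones (15.1 and 14.6 CPM), CRELD2, an ER-resident protein (56.5 and 54.5 CPM), and MANF, a secreted ER stress protein (37.1 and 35.9 CPM).

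The authors' deposited table likewise held 0 of 39 members at a false discovery rate under 0.05 and 0 at a p under 0.05. Its log2 fold changes of the members ran from −0.176 to 0.0791, with the sign of the limma value in 39 of 39. The lowest p in the authors' deposited table was 0.485, for ATF5, and the median 0.788, beside 0.786 over all its genes.

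The members differed far more between replicate numbers than between guides. Replicate number, with the guide in the model, was called in limma for 24 of 39 members, beside 48.6% of all genes. These were 15 of 22 members of the ATF4 arm (68.2%) and 9 of 17 of the ER arm (52.9%). The highest over the lowest replicate mean had a median of 1.26 in the ATF4 arm, 1.13 in the ER arm and 1.19 over all genes. The median share of variance over the members was 87.0% for replicate number, 3.94% for the guide and 6.60% for the residual, each median taken separately, beside 80.5%, 3.94% and 10.1% over all genes. By limma without trend the count of members was 8 (CHAC1, EIF2AK3, EIF2AK4, SLC7A1, SLC7A11, STC2, TRIB3 and VLDLR), or 20.5%, below the 30.0% of all genes called in that setting. The larger share among members than among all genes therefore does not hold there. The labels do not say what a replicate number stands for.

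Of the 39 members, 8 were called with both replicate 1 libraries above the other 4, beside 18.1% of all genes. The means of the 2 libraries of replicates 1, 2 and 3 were 28.9, 9.99 and 8.17 CPM for SLC7A11 (limma adjusted p = 4.13e-08). They were 56.5, 31.3 and 31.8 CPM for STC2 (limma adjusted p = 5.51e-06) and 43.1, 24.2 and 25.8 CPM for VLDLR (limma adjusted p = 4.88e-07). The ratio of highest to lowest replicate mean was thus 3.54, 1.81 and 1.78 for these genes. EIF2AK3 (56.9, 46.8 and 42.9 CPM), DDIT3 (69.8, 62.2 and 59.3 CPM), ERN1, SEL1L and HERPUD1 were also highest in replicate 1, with smaller steps. HERPUD1, at 1.37, had the largest ratio of the ER arm.

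Another 8 of the 39 members were called with both replicate 1 libraries below the other 4, beside 18.9% of all genes. Of these, 6 belong to the ATF4 arm, and they include the amino acid genes ASNS (32.7, 38.4 and 36.3 CPM), PYCR1 (6.79, 8.98 and 8.09 CPM), ALDH18A1 (41.7, 51.5 and 46.1 CPM) and SLC7A5 (59.2, 67.1 and 79.5 CPM). The others were EIF2AK4, TRIB3 (3.42, 4.12 and 5.06 CPM), PDIA4 and CALR (1289, 1418 and 1484 CPM). Among the 22 members of the ATF4 arm, 5 were called with replicate 1 above and 6 with it below. Over all genes 18.1% and 18.9% were. The arm thus showed both directions, as all genes did. Of the members with the TGATGNAA core, SLC7A11, VLDLR and HERPUD1 stood above in replicate 1, ASNS, PYCR1 and TRIB3 below, and CHAC1 neither. Another 8 (ATF5, SLC3A2, SLC7A1, CHAC1, ATF6B, PDIA6, HYOU1 and CRELD2) differed between replicate numbers without replicate 1 standing apart. In it SLC7A1 was highest in replicate 3 (74.3 CPM, beside 58.9 and 52.0 CPM) and CHAC1 lowest in replicate 2 (15.9 CPM, beside 24.6 and 24.9 CPM).

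Macrophage markers also stood apart in replicate 1. Of 15 markers 13 were in the table, each above 0 in every library, and their summed level was 222 and 354 CPM in the replicate 1 libraries of the control and the response element guide, against 103 to 129 CPM in the other 4. Within replicate 1 they were higher with the response element guide. Of the 10 fibroblast markers, 4 had both replicate 1 libraries above the other 4 and 3 had both below. Among them, THY1 was lower in replicate 1 (190.4 and 222 CPM, against 371 to 429 CPM) and LUM higher (20.6 and 22.7 CPM, against 4.21 to 8.27 CPM). The part of these markers in the replicate differences was not tested. Summed levels of endothelial (51.6 to 73.5 CPM), epithelial (57.0 to 100.4 CPM), muscle (29.1 to 48.8 CPM) and neural and glial markers (104 to 126 CPM) were far below the fibroblast sum in every library. Single markers were nonetheless well detected. They were KDR (47.5 to 69.3 CPM), KRT19 (51.4 to 96.9 CPM), DES (28.3 to 47.8 CPM), TUBB3 (34.4 to 69.0 CPM) and STMN2 (17.8 to 59.9 CPM).

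**Figure D4:**
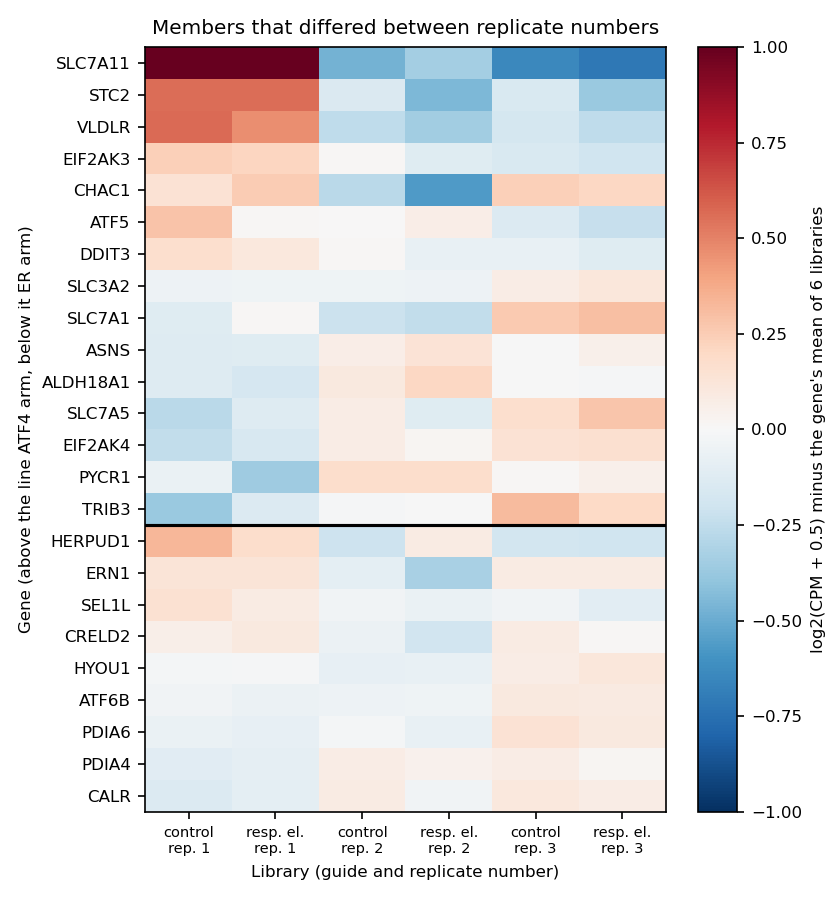
The 24 members that differed between replicate numbers, by library, as log2(CPM + 0.5) minus the mean of the gene over 6 libraries. Red is above and blue below that mean, colours stop at 1, and the 2 SLC7A11 cells of replicate 1 lie at or beyond that limit (up to 1.15). Libraries of equal replicate number look alike whichever guide they carry.

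Further genes of the ER arm lay mostly lower with the response element guide, and further genes of the ATF4 arm mostly higher. These lists come from the same libraries and were chosen with earlier results known, so they give no independent support. Among 41 other ATF4 arm genes, 40 were tested, of which 27 lay higher and 13 lower, with a median log2 fold change of 0.02. Among 55 other ER arm genes, 54 were tested, of which 43 lay lower and 11 higher (79.6% lower, beside 50.3% of all genes), with a median of −0.02. In these ER genes 18 were lower in all 3 pairs (14.4% of all genes) and 7 were lower without overlap (1.47% of all genes). No gene of either list was called in limma with or without the block, where 4 of 40 and 7 of 54 were at an unadjusted p under 0.05 with the block, beside 6.68% of all genes, and 0 without it. Without both replicate 1 libraries, 35 of the ER genes were lower and 19 higher, with a median of −0.0324, which is below the −0.0241 of the full fit. Of the ATF4 genes 19 were then lower and 21 higher, with a median of 0.00374. The split in counts between the lists thus narrowed, and the ATF4 genes no longer lay mostly higher, while the ER median moved lower.

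NUPR1, a stress-induced chromatin protein, had 65.5, 94.3 and 93.1 CPM against 56.2, 85.7 and 76.9 CPM. It was lower in each pair and overlapped between guides (log2 fold change −0.21; limma adjusted p = 0.254 with the replicate block). HSPA5, the central ER chaperone BiP, had 767, 760.4 and 751 CPM against 704, 733 and 725 CPM. Its guides did not overlap (−0.08), and it did not pass either (limma adjusted p = 0.738 with the replicate block). ERLEC1, DNAJC10 and MCFD2, which were chosen after their values were seen, were also lower without overlap.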

How the data were processed

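Poly(A) RNA libraries were made with a strand-specific TruSeq kit, per the labels' protocols. The submitters' processing notes name build mm10, HTSeq 0.6.1, TopHat2 2.0.14, edgeR 3.22.3 and StringTie 1.2.4. The CPM per gene and library were computed in edgeR and deposited by the authors, as the file headers state. The deposited log2 fold change, p-value and false discovery rate are the authors' comparison of the guides under doxorubicin. Per-sample pseudo-count columns (6) were not used, and the 2 of 16427 entries that collect unassigned reads (8.06% to 8.94% outside genes, 0.543% to 1.58% ambiguous) were removed. CPM values were whole reads within 0.01 reads in 100% of cases.

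The test was limma 3.58.1 (trend, robust) on log2(CPM + 0.5) over 14440 genes that reached 0.5 CPM in 3 or more libraries, among them all 39 members. P-values were Benjamini-Hochberg adjusted over all these genes. Libraries of equal replicate number deviated together from the mean of their guide, with r of 0.869, 0.739 and 0.817, against 0.203 or less for other pairs. These r run across genes, which are not independent replicates. The numbers thus pair the libraries, which comes from the data and not from the labels, and a fit with replicate number as a block was run beside it. edgeR 4.0.16 and DESeq2 1.42.0 were run on the recovered reads. The alternatives were other normalizations, filters, pseudocounts and variance models, and each library or pair left out. Scripts were tested on simulated data.

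The members and lists were chosen with earlier results of these data known. Values in every library are given for ATF4, DDIT3, XBP1 and ATF6 and for members without overlap, with a smallest p in their arm, or highest per length in their role. Exon lengths are from GENCODE M21.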

Additional observations from a re-analysis of the deposited data

How the results depend on the processing

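The count of 0 members called for the guide held in all 18 alternatives on 6 or 5 libraries, the replicate block included, which changed no call of a member. Most of these fits lacked the block. Limma without it called 0 of all 14440 genes, PVT1 included, so 0 members in such a fit adds little. With a replicate left out of the blocked fit, the count was 0 to 1, the 1 being ATF5 without replicate 2. Over 816 comparisons of members with alternatives there was 1 call, and 79 changes of sign without a call in 31 members. Some alternatives could not change a sign. Limma without trend, without a filter or with the block on all 6 libraries returns the same fold changes. The 8 members of constant sign were EIF2AK1, DDIT3, CEBPG, EDEM1, SYVN1, PDIA3, CANX and MANF.

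The arm medians moved with single libraries. With each library left out, the ATF4 arm median ran from −0.0333 to 0.00781, the ER arm median from −0.0669 to −0.0180, and their difference from −0.00976 to 0.0432. In the blocked fit with a replicate left out, the ER arm median ran from −0.0490 to −0.0193 and the difference ran from −0.00151 to 0.0297. The difference was 0.0329 with narrower arms and 0.0105 for genes averaging 5 CPM or more. The cause was not tested. Replicate number called 8 of 39 members by limma without trend (20.5%, beside 30.0% of all genes) and 23 to 27 under the other alternatives (61.5% to 69.2%, beside 47.2% to 52.99% of all genes). The counts and medians of other pathway genes without replicate 1 were chosen after seeing the data.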
